A study of Mus musculus with 13 samples.

Results

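The 10 genes described here encode the core enzymes of mitochondrial beta-oxidation in the mouse heart. They were taken by symbol, Acadvl, Acadl, Acadm, Acads, Acad9, Hadha, Hadhb, Hadh, Echs1 and Acaa2, from the 24061 gene symbols of the deposited count files, and all 10 were found. Transcripts had been counted in 13 hearts from male mice of the strain C57BL/6N, kept on chow and aged 13 weeks, so strain, sex, diet and age were the same in every group. There were 4 hearts without the allele E3A (WT/WT), 4 heterozygous ones (WT/E3A) and 5 homozygous ones (E3A/E3A). E3A is an allele of Cpt1b, the gene of the muscle carnitine palmitoyltransferase 1, and in the mouse that carries it malonyl-CoA, the natural inhibitor of the enzyme, inhibits CPT1B less. The labels name no Cre, transgene or drug. The comparison asks what the 10 enzymes' transcripts do in hearts where the gate for fatty acid entry into mitochondria is less restrained.

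Carnitine palmitoyltransferase 1 attaches long-chain fatty acids to carnitine for transport into the mitochondrial matrix, where they return to acyl-CoA. Beta-oxidation then shortens the acyl-CoA in rounds of 4 reactions: a dehydrogenation, a hydration, another dehydrogenation and a thiolytic cleavage that releases acetyl-CoA. For long chains, the last 3 reactions are carried by the mitochondrial trifunctional protein, and for shorter chains by separate matrix enzymes. The adult heart draws much of its ATP from this pathway.

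In the labels, 4 of the 13 libraries carry a note as potential outliers. They are the libraries numbered 1 in all 3 genotypes and, in addition, number 2 of E3A/E3A. Every comparison was therefore fitted on all 13 libraries and on the other 9, which hold 3 hearts of each genotype. Depth ranged from 20.1 to 52.6 M counted reads a library, and the members had 1162 to 112791 reads in a heart. All 10 members passed the filter on low counts in both sets, among 14387 genes tested in the 13 libraries and 14373 in the 9. The heart label fitted the markers: the 11 cardiomyocyte genes summed to 108100 to 121600 reads per 1 M counted reads (CPM) in the 9 libraries, and Myh6, the adult cardiac myosin heavy chain, took 3.90% to 4.61% of reads. In the 4 noted libraries Myh6 took 6.59% to 9.49%. Values of single hearts are CPM with edgeR's TMM scaling over all 13 libraries. P-values set a difference between genotypes against the spread between these hearts.

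In the 9 libraries, transcripts of 4 of the 10 enzymes fell in E3A/E3A against WT/WT hearts. They were the thiolase Acaa2 (log2 fold change -0.38), both subunits of the trifunctional protein, Hadhb (-0.31) and Hadha (-0.30), and the hydroxyacyl-CoA dehydrogenase Hadh (-0.25). A gene was called when edgeR's adjusted p was under 0.05. Of all 14373 genes tested, 0.216% were called lower. All 10 members had a log2 fold change below 0, against 49.4% of all genes tested, and their median was -0.21, against 0.00 for all genes. In 8 of the 10, every E3A/E3A heart lay below every WT/WT heart, which held for 6.94% of all genes. The 2 others were Acad9 and Echs1. In RNA of whole hearts, fewer cells of a type and less RNA per cell cannot be told apart. With all 13 libraries none of the 10 was called lower (0.00695% of all genes were), although all 10 fold changes were again below 0 (56.3% of all genes) with a median of -0.20 (all genes -0.02). Without WT/WT replicate 1 in that fit, 4 of them turned above 0: Acads (0.23), Echs1 (0.21), Acad9 (0.18) and Acadvl (0.13).

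**Figure D1:**
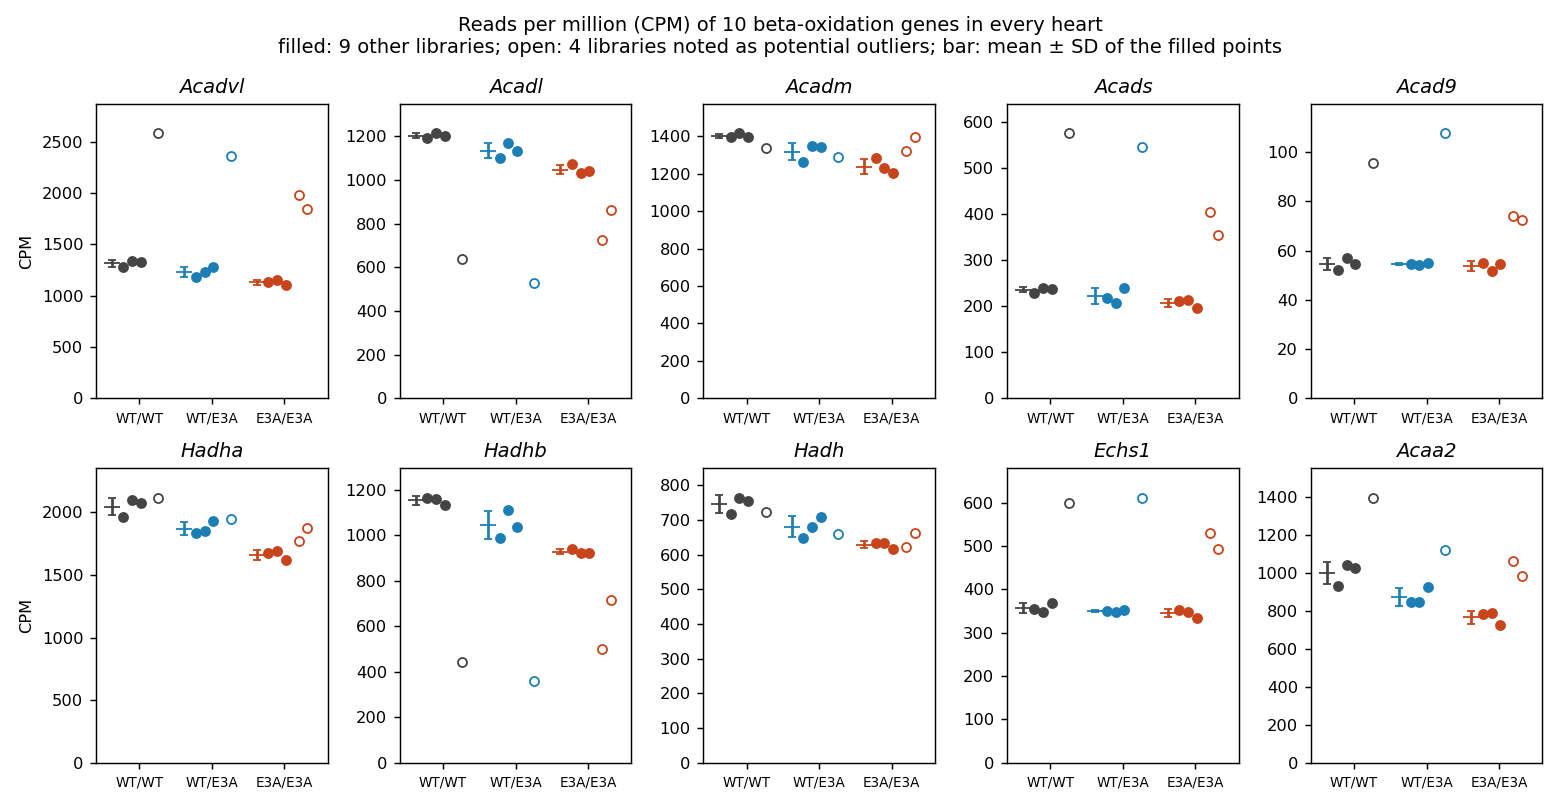
Expression in CPM (y axis, from 0) of each of the 10 genes by genotype (x axis), 1 point per heart; filled points are the 9 other libraries, open points the 4 noted as potential outliers, and the bar beside them the mean and SD of the filled points. Filled E3A/E3A points lie below filled WT/WT points in 8 of 10 panels, and the open points stand far above or below them for several genes.

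The trifunctional protein is a complex of alpha subunits, which carry the long-chain hydratase and hydroxyacyl-CoA dehydrogenase, and beta subunits, which carry the thiolase. Hadha, the alpha subunit, stood at 1966, 2099.7 and 2072 CPM in WT/WT replicates 2 to 4, at 1834, 1849 and 1931 CPM in WT/E3A replicates 2 to 4, and at 1673, 1689 and 1618 CPM in E3A/E3A replicates 3 to 5. The 3 genotypes did not overlap: every heart with 2 E3A alleles was below every heart with 1, and those were below every heart with none. Hadha fell by 0.30 on the log2 scale in E3A/E3A against WT/WT (SE 0.05), which is a change of -18.9% (edgeR adjusted p = 0.0115). In the noted libraries Hadha was at 2119 CPM in the WT/WT heart, 1950.4 CPM in the WT/E3A heart, and 1769 and 1873 CPM in the E3A/E3A hearts. With these included every E3A/E3A heart was still below every WT/WT heart.

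Hadhb, the beta subunit, stood at 1166, 1160.2 and 1133 CPM in the 3 WT/WT hearts, at 989, 1111 and 1037 CPM in the 3 WT/E3A hearts, and at 941, 924 and 920.3 CPM in the 3 E3A/E3A hearts, in the same order of replicates. Again the 3 genotypes did not overlap. Hadhb fell by 0.31 on the log2 scale (SE 0.05, -19.5%, edgeR adjusted p = 0.0142). In the noted libraries it was far lower, at 444 CPM in the WT/WT heart, 359.5 CPM in the WT/E3A heart, and 501 and 714 CPM in the E3A/E3A hearts. The ratio of Hadha to Hadhb CPM was 1.67 to 1.86 over the 9 libraries, with means of 1.78 (SD 0.08), 1.79 (SD 0.11) and 1.79 (SD 0.04) for 0, 1 and 2 E3A alleles. In the same 4 noted libraries it was 4.77, 5.43, 3.53 and 2.62. The ratio of the subunits was near constant across genotypes in the 9 libraries and not in the noted ones. Such likeness was not particular to the complex. Over the 9 libraries Hadha had a Pearson r of 0.914 with Hadhb, and of 0.989 with Acaa2. Ratios of other pairs were not computed.

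Hadha and Hadhb lie head to head on chromosome 5 of GRCm38, Hadha on the minus strand (30118304 to 30155162) and Hadhb on the plus strand (30155248 to 30184593). Their RefSeq starts are 272 bases apart, so the promoter windows (250 bases before to 50 after the start) share 228 bases. RefSeq promoter windows of build GRCm38.p6 were found for 8 of the 10 members, all except Acad9 and Acaa2. The window of Hadha is shown because it holds most of the window of Hadhb, that of Hadh because it is the other called gene with an entry, and that of Echs1 for contrast, since Echs1 was not called. Capitals mark AGGTCA, the half-site of PPAR and other nuclear receptors, GGGCGG, the GC box, and CCAAT, each on either strand, 5′ to 3′ on the strand of the gene. The windows are chr5:30154931-30155230 (minus strand), chr3:131272052-131272351 (minus strand) and chr7:140116372-140116671 (minus strand).
Hadha: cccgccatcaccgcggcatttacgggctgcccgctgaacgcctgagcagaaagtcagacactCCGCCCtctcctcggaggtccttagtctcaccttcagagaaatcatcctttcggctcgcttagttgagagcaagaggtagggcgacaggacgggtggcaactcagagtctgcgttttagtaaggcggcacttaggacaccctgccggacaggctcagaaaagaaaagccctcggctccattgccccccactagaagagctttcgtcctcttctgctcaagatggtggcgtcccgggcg
Hadh: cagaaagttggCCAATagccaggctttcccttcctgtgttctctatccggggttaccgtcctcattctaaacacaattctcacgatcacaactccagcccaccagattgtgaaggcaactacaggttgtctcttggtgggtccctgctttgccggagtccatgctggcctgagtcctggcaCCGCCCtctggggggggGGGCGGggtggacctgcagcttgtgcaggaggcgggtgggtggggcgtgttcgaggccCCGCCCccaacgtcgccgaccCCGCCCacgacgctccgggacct
Echs1: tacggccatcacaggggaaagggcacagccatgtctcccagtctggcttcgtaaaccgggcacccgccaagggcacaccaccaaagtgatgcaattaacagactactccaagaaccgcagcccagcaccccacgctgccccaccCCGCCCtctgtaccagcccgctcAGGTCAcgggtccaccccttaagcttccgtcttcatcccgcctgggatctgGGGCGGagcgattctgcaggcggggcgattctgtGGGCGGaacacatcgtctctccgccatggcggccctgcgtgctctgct

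GGGCGG was found in 6 of the 8 windows (Acadl, Acads, Hadha, Hadhb, Hadh and Echs1), against 47.0% of 20287 mouse promoter windows of the same length. AGGTCA was found in 3 of 8 (Acadvl, Acadm and Echs1; 14.5% of all windows). A pair of AGGTCA copies separated by 1 base, the PPAR/RXR element, was found in 0 of 8 without mismatches (0.0542% of all windows), and in Echs1 alone with up to 2 mismatches in its 12 bases (3.46% of all windows). CCAAT was found in Hadh alone (38.1% of all windows) and TATAAA in none (12.2% of all windows). Hadha, Hadhb and Hadh, the called genes with an entry, held GGGCGG and no AGGTCA in these windows. The same was true of Acadl and Acads, which were not called, so the pattern did not separate called from uncalled members. The 1 GGGCGG of Hadha lies in the bases shared with the window of Hadhb and is counted for both. These matches describe letters in the window and not binding.

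Hadh, the hydroxyacyl-CoA dehydrogenase of medium and short chains, stood at 717, 765 and 755 CPM in the 3 WT/WT hearts, at 649, 680.4 and 709.6 CPM in the 3 WT/E3A hearts, and at 635, 633 and 617 CPM in the 3 E3A/E3A hearts. The genotypes did not overlap. Hadh fell by 0.25 on the log2 scale (SE 0.05, -15.7%, edgeR adjusted p = 0.0488), the call closest to the threshold. The noted libraries lay near the others for this gene, at 723, 659, 621 and 662 CPM in the order given for Hadhb. Hadh lies on chromosome 3 (131233419 to 131272101, minus strand).

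Acaa2, the thiolase that cleaves medium-chain ketoacyl-CoA, stood at 934, 1042 and 1026 CPM in the 3 WT/WT hearts, at 848, 846 and 926 CPM in the 3 WT/E3A hearts, and at 785, 791 and 728 CPM in the 3 E3A/E3A hearts. The genotypes did not overlap, though WT/WT replicate 2 and WT/E3A replicate 4 were only a few CPM apart. Acaa2 fell by 0.38 on the log2 scale (SE 0.06, -23.2%, edgeR adjusted p = 0.0103), the largest change among the 10. In the noted libraries it was higher than in the other hearts of each genotype, at 1398 CPM in WT/WT, 1121 CPM in WT/E3A, and 1065 and 987 CPM in E3A/E3A, so that with all 13 libraries E3A/E3A and WT/WT overlapped.

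Echs1, the short-chain enoyl-CoA hydratase, stood at 354, 349 and 369.9 CPM in the 3 WT/WT hearts, at 349, 349 and 352 CPM in the 3 WT/E3A hearts, and at 354, 348 and 335 CPM in the 3 E3A/E3A hearts. The genotypes overlapped. Its log2 fold change in E3A/E3A against WT/WT was -0.05 (SE 0.04, edgeR adjusted p = 0.889). Whether Echs1 differed from the called enzymes in its response to genotype was not tested.

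The acyl-CoA dehydrogenases carry out the first reaction of each round and differ in the chain length they prefer. None of the 5 was called in E3A/E3A against WT/WT in the 9 libraries. For 4 of them every E3A/E3A heart was below every WT/WT heart, which held for 6.94% of all genes. Acadvl, the very long-chain enzyme of the inner membrane, stood at 1277, 1342 and 1329 CPM in WT/WT, at 1185, 1232 and 1282 CPM in WT/E3A, and at 1129, 1155 and 1104 CPM in E3A/E3A hearts. WT/E3A replicate 4 lay above WT/WT replicate 2, and the E3A/E3A hearts lay below all others. The log2 fold change of Acadvl in E3A/E3A against WT/WT was -0.22 (SE 0.05, edgeR adjusted p = 0.0819). Acadl, the long-chain enzyme, stood at 1192, 1215 and 1201 CPM in WT/WT, at 1101, 1170.5 and 1132 CPM in WT/E3A, and at 1072, 1031 and 1043 CPM in E3A/E3A hearts. Its genotypes did not overlap, and Acadl changed by -0.20 on the log2 scale in E3A/E3A against WT/WT (SE 0.04, edgeR adjusted p = 0.107).

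Acadm, the medium-chain enzyme, stood at 1393, 1416 and 1393 CPM in WT/WT, at 1263, 1346 and 1342 CPM in WT/E3A, and at 1281, 1228 and 1201 CPM in E3A/E3A hearts. Both groups with E3A were below WT/WT and overlapped each other. Its log2 fold change in E3A/E3A against WT/WT was -0.18 (SE 0.05, edgeR adjusted p = 0.170). Acads, the short-chain enzyme, stood at 229.9, 241 and 238 CPM in WT/WT, at 218, 207 and 241 CPM in WT/E3A, and at 211, 213 and 197 CPM in E3A/E3A hearts. WT/E3A overlapped both other groups, which did not overlap each other, and the log2 fold change in E3A/E3A against WT/WT was -0.19 (SE 0.06, edgeR adjusted p = 0.286).

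Acad9 belongs to the family by sequence and is also an assembly factor of respiratory complex I. It stood at 52.2, 56.9 and 54.8 CPM in WT/WT, at 54.7, 54.1 and 55.2 CPM in WT/E3A, and at 55.1, 51.6 and 54.8 CPM in E3A/E3A hearts. The genotypes overlapped throughout, with a log2 fold change of -0.02 (SE 0.05, edgeR adjusted p = 0.976) in E3A/E3A against WT/WT. Of 5 other genes of complex I assembly that act with Acad9 (Ecsit, Ndufaf1, Tmem126b, Timmdc1 and Tmem186), none was called, and their log2 fold changes ran from -0.10 to 0.00. Part of the exon sequence of 3 members is shared with another gene model in GENCODE: 976 bases of Acadvl with Dvl2 on the other strand, 559 bases of Acad9 with Gm43079 and 75 bases of Hadha with Garem2. How reads in shared bases were counted is not given in the sources used here.

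**Figure D2:**
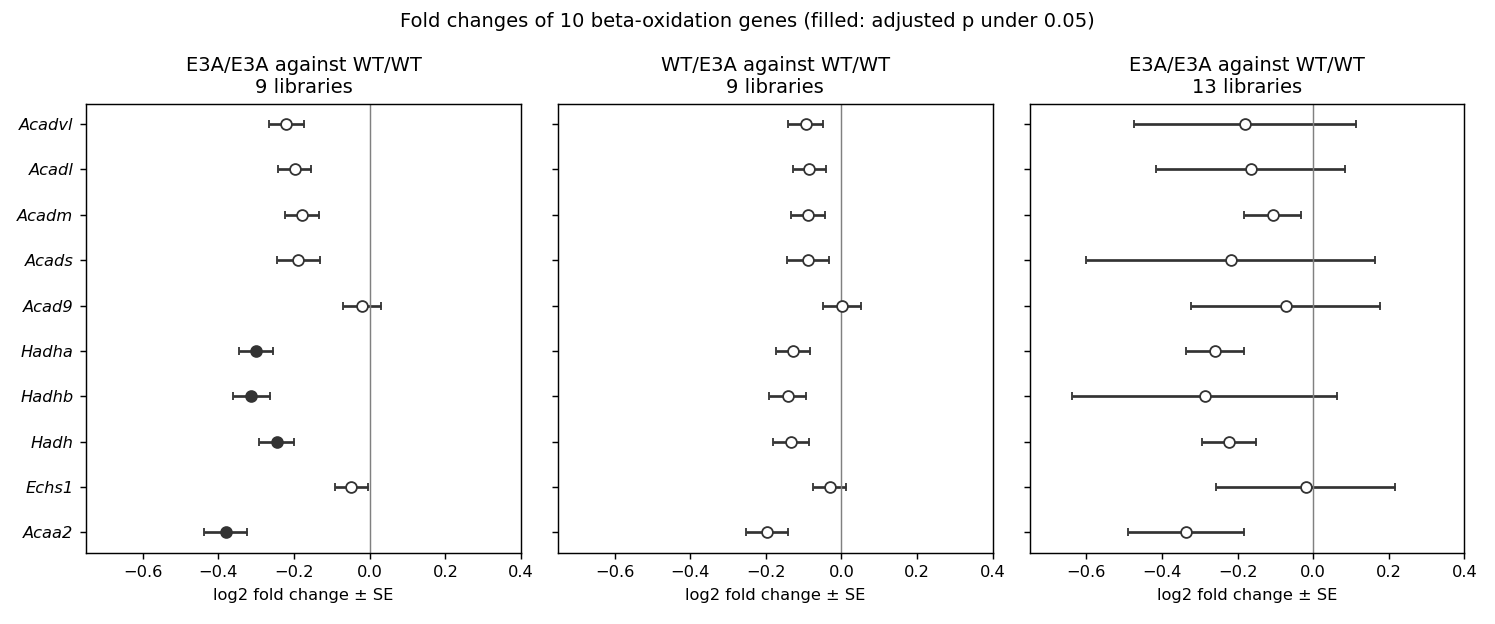
Log2 fold change (x axis) of each of the 10 genes (y axis) in 3 comparisons, with bars of 1 standard error; filled points passed an adjusted p of 0.05 in edgeR. The 4 filled points, Hadha, Hadhb, Hadh and Acaa2, are in E3A/E3A against WT/WT over 9 libraries, WT/E3A against WT/WT gives smaller values, and the bars widen with all 13 libraries.

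On average, hearts with 1 E3A allele lay between the homozygotes for most members, while single hearts overlapped them for several. The WT/E3A mean was between the WT/WT and E3A/E3A means for 9 of 10 members in the 9 libraries, all but Acad9. The summed level of the 10 members averaged 9513 CPM with 0 E3A alleles (SD 208, n = 3), 8780 CPM with 1 (SD 263, n = 3) and 8005 CPM with 2 (SD 166, n = 3). In WT/E3A against WT/WT none of the 10 was called lower by edgeR, nor under any alternative run, and 0.0139% of all genes were. The log2 fold changes ran from -0.20 (Acaa2) to 0.00 (Acad9) with a median of -0.09, and 9 of 10 were below 0. Of the 10, 4 had an unadjusted p under 0.05 (6.36% of all genes), and 6 members had every WT/E3A heart below every WT/WT heart, against 6.27% of all genes. In E3A/E3A against WT/E3A none was called lower either (0.0139% of all genes were). All 10 log2 fold changes were below 0, from -0.18 to -0.02, 6 had an unadjusted p under 0.05 (6.91% of all genes), and 6 had every E3A/E3A heart below every WT/E3A heart (5.53% of all genes). DESeq2 called 1 member in this comparison, Hadha (adjusted p = 0.0365), and 0.16% of all genes lower. The 3 comparisons share hearts, so their values are not independent of each other.

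A fit with 1 slope over 0, 1 and 2 E3A alleles called 4 members lower in the 9 libraries, the same 4 as the comparison of homozygotes, against 0.209% of all genes. Per allele, Acaa2 changed by -0.19 on the log2 scale (SE 0.03, edgeR adjusted p = 0.00571), Hadhb by -0.16 (SE 0.02, 0.00937), Hadha by -0.15 (SE 0.02, 0.00646) and Hadh by -0.12 (SE 0.02, 0.0310). Acadvl had a slope of -0.11 (SE 0.02, edgeR adjusted p = 0.0547). With 13 libraries the slope called none of the 10 in edgeR, 3 had an unadjusted p under 0.05, and 0.0139% of all genes were called lower. An unadjusted p under 0.05 was held by 1.33% of all genes. DESeq2 then called 2 members (0.146% of all genes were called lower) and limma-voom with quality weights 3 (0.278%). In the 9 libraries the slope in edgeR called none without WT/WT replicate 3 or WT/WT replicate 4, and Acaa2 alone without E3A/E3A replicate 5. Hadh was also lost from that fit without E3A/E3A replicate 3 or E3A/E3A replicate 4 (edgeR adjusted p = 0.0771 and 0.105).

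The calls rested on few hearts. In E3A/E3A against WT/WT over the 9 libraries, edgeR called none of the 10 when WT/WT replicate 3, WT/WT replicate 4 or E3A/E3A replicate 5 was left out. For the 4 genes the adjusted p was then 0.0936 to 0.293, 0.0950 to 0.327 and 0.0549 to 0.156. Over all genes, 8, 7 and 9 were then called lower, against 31 with the 9 libraries. Without E3A/E3A replicate 4, 2 stayed called (Hadha and Acaa2). Hadh alone was also lost without E3A/E3A replicate 3, WT/E3A replicate 3 or WT/E3A replicate 4 (edgeR adjusted p = 0.105, 0.0661 and 0.0504). Of the 19 alternatives run for this comparison, Hadh kept its call in 9 and lost it in 10. DESeq2 and limma-voom with library quality weights each called 7 of 10 in the same 9 libraries, adding Acadvl, Acadl and Acadm. They called more genes in all, with 0.424% and 0.383% of all genes lower, against 0.216% in edgeR. The log2 fold changes moved little: over the alternatives tried, that of Acaa2 ran from -0.43 to -0.31, that of Hadha from -0.33 to -0.26, that of Hadhb from -0.35 to -0.28 and that of Hadh from -0.27 to -0.21.

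Sample titles begin with C2, C3, C4 or C6, a prefix of unstated meaning that is uneven over genotypes. C2 holds 3 of the noted libraries (2 E3A/E3A and 1 WT/WT), C3 holds 1 WT/WT, 1 WT/E3A and 2 E3A/E3A, C4 holds 3 WT/E3A and 1 E3A/E3A, and C6 holds WT/WT libraries only, 2 in number. Within C3, the log2 difference between E3A/E3A and WT/WT was below 0 for 9 of 10 members, with a median of -0.18. It was -0.33 for Hadhb, -0.30 for Acaa2, -0.26 for Hadha, -0.20 for Hadh and 0.07 for Acad9. Within C2, where all 3 libraries are noted, the same difference was below 0 for 7 of 10 members, with a median of -0.22, and ran from -0.61 for Acads to 0.43 for Hadhb. Acadl (0.31) and Acadm (0.02) were the others above 0. Within C4, E3A/E3A was below WT/E3A for 10 of 10 members in the 9 libraries, from -0.22 to -0.01. With the noted WT/E3A library of C4 included it was below for 8 of 10, from -0.50 to 0.31. With the prefix as a block the fit over 9 libraries called none: the log2 fold changes were -0.35 for Hadhb (edgeR adjusted p = 0.140), -0.31 for Acaa2 (0.220), -0.26 for Hadha (0.259) and -0.21 for Hadh (0.538). In that fit the C6 hearts carry no information on genotype, and WT/WT rests on replicate 2 alone.

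With all 13 libraries in E3A/E3A against WT/WT, edgeR gave 3 members an unadjusted p under 0.05, against 1.2% of all genes. They were Hadha (log2 fold change -0.26, SE 0.08), Hadh (-0.22, SE 0.07) and Acaa2 (-0.34, SE 0.15). None passed adjustment over all genes in edgeR. Hadha and Hadh were also the 2 members whose E3A/E3A hearts were all below all WT/WT hearts, against 0.563% of all genes. DESeq2 called both (adjusted p = 0.00426 and 9.42e-05), and 0.146% of all genes lower. Limma-voom with library quality weights called Hadha, Hadh and Acaa2 (adjusted p = 0.00323, 0.0092 and 0.0110), and 0.299% of all genes lower. It gave the 4 noted libraries weights of 0.0643 to 0.352 and the others 1.62 to 5.10. For Hadhb, called in the 9 libraries, the 13 libraries gave -0.29 with an SE of 0.35.

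The noted hearts did not shift the 10 genes together. In each genotype the noted hearts, 1 in WT/WT, 1 in WT/E3A and 2 in E3A/E3A, were compared with the others as a ratio of mean CPM. Acads was 1.83 to 2.46 times as high in the noted hearts over the 3 genotypes, Acadvl 1.69 to 1.96 times, Acad9 1.37 to 1.97 times, Echs1 1.48 to 1.75 times, Acaa2 1.28 to 1.398 times and Hadha 1.03 to 1.097 times. Hadhb was 0.344 to 0.654 times as high and Acadl 0.468 to 0.757 times. Acadm (0.953 to 1.098) and Hadh (0.970 to 1.02) lay on both sides of 1. So 6 members were higher and 2 lower in the noted hearts of every genotype. Of the subunits of the trifunctional protein, Hadhb was far lower while Hadha was only slightly higher.

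The ratios ran with the GC content of the transcripts. Acadl (45.2% GC) and Hadhb (45.4%) had the lowest GC content of the 10 and the lowest ratios, and Acads (60.1%) the highest of both. Acadm (48.0%) and Acad9 (48.1%) were alike in GC content and apart in their ratios. Across the 10 members, the log2 difference between noted and other hearts had a Pearson r with GC content of 0.797 in WT/WT, 0.762 in WT/E3A and 0.822 in E3A/E3A. Across 14274 genes it was 0.691, 0.645 and 0.633. These are descriptions across genes that share libraries. What sets the noted libraries apart was not tested. After removal of a smooth trend on GC content and transcript length in each library, a step chosen after seeing the data, edgeR still called none of the 10 with 13 libraries (0.0209% of all genes lower). With the 9 it called 4 (0.23% of all genes lower): Acaa2, Hadha and Hadhb again, and Acads (log2 fold change -0.25, edgeR adjusted p = 0.0325) in place of Hadh (-0.24, 0.0832).

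**Figure D3:**
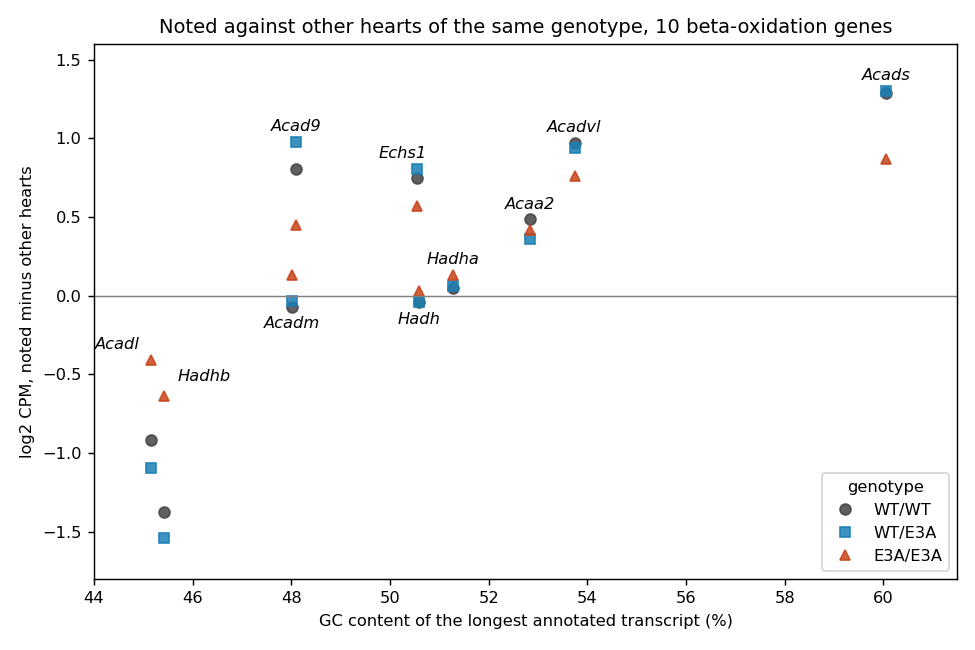
Log2 difference in CPM between noted and other hearts of the same genotype (y axis) against GC content of the transcript (x axis), 1 point per gene and genotype. Acadl and Hadhb, the 2 lowest in GC, lie below 0 in each genotype, and Acads, at 60.1% GC, lies highest.

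Per kilobase of transcript, levels of the 10 genes spanned a wide range. In WT/WT hearts of the 9 libraries, Acadm led with 684 CPM per kb (SD 6.50, n = 3), followed by Acaa2 with 660 (SD 38.4), Acadl with 628 (SD 6.12), Acadvl with 607 (SD 15.7), Hadhb with 563 (SD 8.63), Hadha with 509 (SD 17.6) and Hadh with 417 (SD 14.1). Echs1 had 230 CPM per kb (SD 7.04), Acads 126 (SD 2.96) and Acad9 13.9 (SD 0.598). The ranges of Acadm and Acaa2 overlapped, as did those of Acaa2 and Acadl, and every later neighbour in the order was separated. The place of Hadha depends on its length: the GENCODE transcript has 4017 bases, of which 2716 lie inside the RefSeq gene, and with the shorter length Hadha had 753 CPM per kb and led the order.

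**Figure D4:**
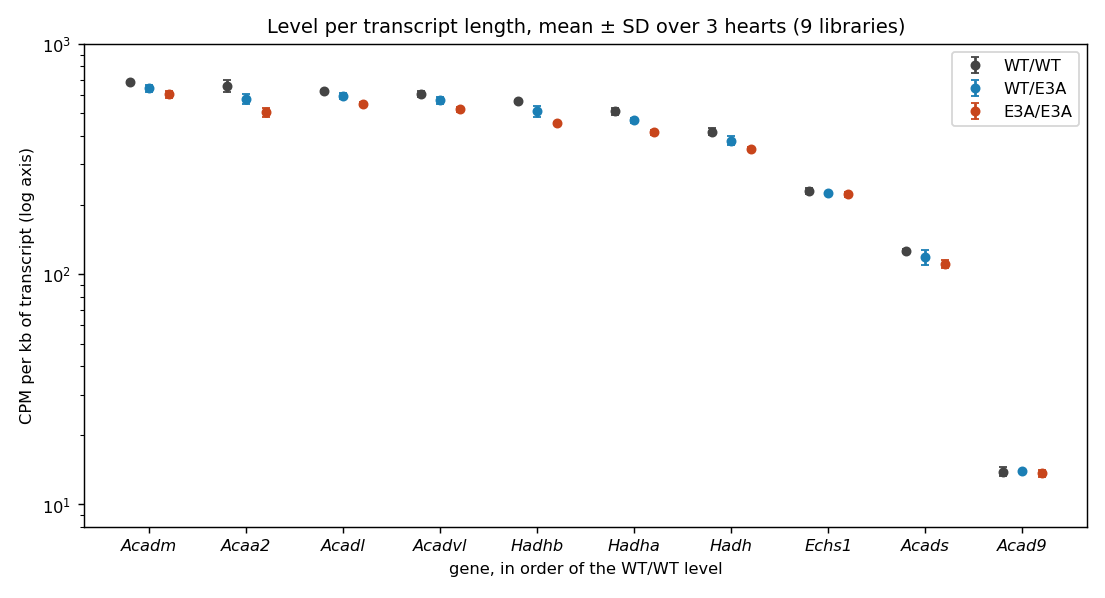
CPM per kb of transcript (y axis, log scale) of the 10 genes in the order of their WT/WT level (x axis), as mean and SD over 3 hearts of each genotype in the 9 libraries. Acadm, Acaa2, Acadl and Acadvl lead above 600 CPM per kb in WT/WT, and Acad9 is lowest at 13.9.

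Genes that act beside the 10 enzymes were taken from lists set by pathway. In E3A/E3A against WT/WT over the 9 libraries, 2 of 5 genes of the carnitine shuttle fell: Slc25a20, the carnitine-acylcarnitine translocase (log2 fold change -0.35, SE 0.06, edgeR adjusted p = 0.0212), and Cpt2, which re-forms acyl-CoA in the matrix (-0.27, SE 0.05, 0.0443). Of the auxiliary enzymes for unsaturated fatty acids, 2 of 4 fell: Decr1, the dienoyl-CoA reductase (-0.46, SE 0.05, edgeR adjusted p = 0.00166), and Ech1, a dienoyl-CoA isomerase (-0.39, SE 0.06, 0.0103). Decr1 stood at 471 CPM with 0 E3A alleles (SD 10.0, n = 3), 407 CPM with 1 (SD 27.1, n = 3) and 342 CPM with 2 (SD 10.96, n = 3). Of the electron transfer flavoprotein and its oxidoreductase, which take the electrons of the acyl-CoA dehydrogenases, 1 of 3 fell, Etfdh (-0.24, SE 0.04, edgeR adjusted p = 0.0302). Of all 14373 genes tested, 0.216% were called lower. These calls depended on the processing: over 10 alternatives, the number of genes called, over all lists tested, ran from 1 to 10.

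None of the following groups held a call. Of 7 other mitochondrial acyl-CoA dehydrogenases none was called (median log2 fold change -0.14, 4 with an unadjusted p under 0.05), nor was either of Hsd17b10 and Acat1. None of 17 genes of the tricarboxylic acid cycle was called (median -0.06, 16 below 0, 1 with an unadjusted p under 0.05), and none of 24 nuclear genes of oxidative phosphorylation (median -0.03, 20 below 0, 0 with such a p). The core enzymes had a median of -0.21. Among all 14373 genes tested, edgeR gave 1105 an unadjusted p under 0.05, and 7105 lay below 0. None of 11 genes of PPAR, RXR, PGC-1 and ERR, the nuclear receptors and coactivators that drive these enzymes' transcription, was called (median 0.02, 4 below 0, 1 with such a p). Ppara had a log2 fold change of 0.17 (SE 0.22, edgeR adjusted p = 0.935) and Esrra 0.01 (SE 0.06, 0.995). With 13 libraries, over all lists tested, edgeR called none of the genes in this comparison, DESeq2 called 1 and limma-voom with quality weights 4.

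Cpt1b, the gene that carries E3A, was counted at 2.89 CPM with 0 E3A alleles (SD 0.09, n = 3), 2.92 CPM with 1 (SD 0.39, n = 3) and 3.53 CPM with 2 (SD 0.19, n = 3), with a log2 fold change of 0.29 (SE 0.13, edgeR adjusted p = 0.642) for the homozygotes. In GENCODE, 94.8% of its exon bases are shared with the gene model Gm44502, a symbol not used in these counts, and how reads in the shared bases were counted is not given in the sources used here. Its level does not check the genotype labels, since E3A changes the protein.

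**Figure D5:**
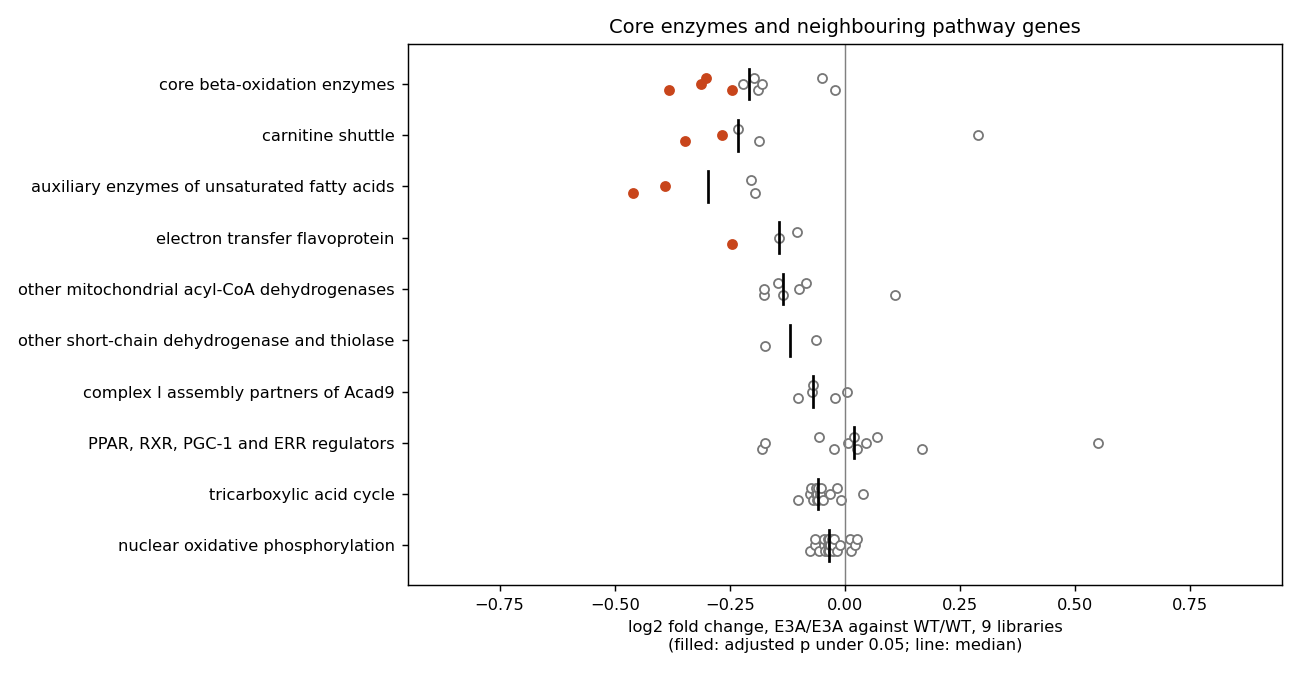
Log2 fold change in E3A/E3A against WT/WT over 9 libraries (x axis) for each tested gene of 10 lists (y axis), with filled points for genes called by edgeR and a line at each list's median. Of the 10 lists drawn, the core, shuttle, auxiliary and flavoprotein lists hold called genes.

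Across the 9 libraries, the genes most like the members' mean profile (the mean of their standardised log2 CPM) were Acat1, a mitochondrial thiolase (Pearson r = 0.986), Slc22a3, an organic cation transporter (0.985), Ech1 (0.985), Fbp2, the muscle fructose bisphosphatase (0.981), and Dbi, an acyl-CoA binding protein (0.976), out of 14363 other genes. Among the members, r with this profile, which holds the member itself, ran from 0.987 for Hadh to 0.673 for Echs1 and 0.386 for Acad9. The pair most alike was Hadha with Acaa2 (r = 0.989) and the least alike Acad9 with Echs1 (-0.02). These correlations over 9 hearts hold the genotype difference and describe these libraries only. The profile was highest in WT/WT replicate 3 and lowest in E3A/E3A replicate 5, and WT/WT replicate 2 was close to WT/E3A replicate 4. Of the 5 genes, 2 were called in E3A/E3A against WT/WT over these libraries: Ech1, with the values given above, and Fbp2 (log2 fold change -1.03, SE 0.10, edgeR adjusted p = 0.000866). Of all genes tested, 0.216% were called lower. The 5 were picked by a profile that differs by genotype in the same hearts, which favours such calls.

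Marker lists gave the cell types beside these values. In the 9 libraries the cardiomyocyte markers summed to 108100 to 117500 CPM in WT/WT and 114200 to 117400 CPM in E3A/E3A hearts, and none of 11 was called. The 7 fibroblast markers summed to 1180 to 1201 CPM in WT/WT and 1216 to 1364 CPM in E3A/E3A, without overlap. None was called in edgeR, 3 had an unadjusted p under 0.05, and all 7 log2 fold changes were above 0, from 0.07 (Tcf21) to 0.20 (Col1a1). Among all 14373 genes tested, 1105 had such a p and 7268 lay above 0. The macrophage markers summed to 156 to 183 CPM and 178 to 201 CPM, with 5 of 5 tested above 0 and none called. The 7 endothelial markers overlapped, with sums of 1311 to 1339 CPM in WT/WT and 1259 to 1462 CPM in E3A/E3A. Their log2 fold changes were below 0 for 3 and above 0 for 4, and none was called. The brown adipocyte markers summed to 20.8 to 23.5 CPM in WT/WT and 17.3 to 18.8 CPM in E3A/E3A. That sum was nearly all Cidea, at 19.8 CPM (SD 0.92, n = 3) and 15.9 CPM (SD 1.12, n = 3), while Ucp1, which defines brown fat, had no read in these 6 hearts. White adipocyte markers summed to 2.01 to 2.59 CPM and 2.64 to 4.48 CPM. The part of the fibroblast, macrophage and adipocyte markers in the members' differences was not tested. In the noted libraries the cardiomyocyte sum reached 226700 CPM and the fibroblast sum 4361 CPM.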

How the data were processed

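Polyadenylated RNA of 13 hearts had been sequenced as single-end reads. The deposited files hold whole-number counts per gene symbol, 1 file a heart, made by the authors with STAR 2.4.0 and featureCounts 1.4.4 on mm10 (GRCm38), per the submitters' processing notes. The annotation, the strand setting and the handling of reads that fit several genes are not given in the sources used here. No 2 files were identical. Groups came from the genotype labels, and replicates were numbered in accession order.

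The tests ran in edgeR 4.0.16 (R 4.3.3), with filterByExpr, TMM scaling, all 3 genotypes in the same robust quasi-likelihood model, and Benjamini-Hochberg adjustment over all genes tested. Calls needed an adjusted p under 0.05. The scripts were tested on simulated data. Alternatives used DESeq2 1.42.0 and limma 3.58.1. Transcript length, GC content and gene positions came from GENCODE vM21, with 98.4% of symbols matched, and promoter windows from RefSeq. Likeness used log2 CPM with 0.1 CPM added. Reads carry no molecular identifiers, so errors cover counting and the spread between hearts.

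Named genes are the 10 members, called genes of the neighbouring lists, Cpt1b, Cpt2, Ppara and Esrra, the 5 genes most like the members' profile, Myh6, and the highest and lowest marker of a list described. One further pathway list, which also held a call, was tested and is not reported here. Members and lists were chosen with earlier results of these data known.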

Additional observations from a re-analysis of the deposited data

Results flagged for a closer look

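In 6 of the 10 members, a single heart stood apart from the other 3 of its genotype, beyond Dixon's 95% critical value for 4 samples, in both WT/WT and WT/E3A. Each time it was replicate 1, a library noted in the labels as a potential outlier. Chance gives such a gap in about 1 in 20 independent groups, but these gaps all come from the same libraries and are not independent. The share of all genes with such a gap was not counted. By size, the shifts of the 6 members in WT/WT replicate 1 lay at percentiles 58.3 (Echs1) to 86.6 (Hadhb) of all genes. In WT/E3A replicate 1 they lay at percentiles 61.7 (Echs1) to 89.8 (Hadhb), so many other genes shifted as much.

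In WT/WT replicate 1, Acadvl was at 2583 CPM (nearest heart 1342), Acads at 576 CPM (nearest 241), Acad9 at 95.6 CPM (nearest 56.9) and Echs1 at 600.3 CPM (nearest 369.9), each the highest of its group. In the same heart Acadl was at 637 CPM (nearest 1192) and Hadhb at 444 CPM (nearest 1133), each the lowest. In WT/E3A replicate 1, Acadvl was at 2361 CPM (nearest 1282), Acads at 547 CPM (nearest 241), Acad9 at 108 CPM (nearest 55.2) and Echs1 at 612 CPM (nearest 352), each the highest. Acadl was at 531 CPM (nearest 1101) and Hadhb at 359.5 CPM (nearest 989), each the lowest. The 5 E3A/E3A hearts, 2 of them noted, gave no such gap for any member. A gap of a single heart cannot flag 2 hearts that stand apart together. For Acadvl the noted E3A/E3A hearts were at 1976 and 1844 CPM, and the highest of the others was at 1155 CPM.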

How the results depend on the processing

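No paired analysis was possible because the labels give no replicate numbers: those used here are in accession order and pair no hearts. In E3A/E3A against WT/WT over 9 libraries, 4 members were called, and 7 with DESeq2, 7 with limma-voom with quality weights and 0 with the title prefix as a block. With a heart left out the count ran from 0 to 4. For the slope per E3A allele the counts were 7, 7 and 0 under the same settings, and 0 to 5 with a heart left out. In E3A/E3A against WT/E3A, DESeq2 called 1 in the 9 libraries. With 13 libraries, DESeq2 called 2 and limma-voom with quality weights 3, both in E3A/E3A against WT/WT and for the slope. The GC and length correction was chosen after seeing the data.

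Directions reversed as follows, on the log2 scale. In E3A/E3A against WT/WT with 13 libraries, the prefix block gave 0.0751 for Acadl and 0.0553 for Hadhb. With 1 heart left out, values ran from -0.32 to 0.13 for Acadvl, -0.40 to 0.23 for Acads, -0.16 to 0.18 for Acad9 and -0.13 to 0.21 for Echs1, each highest without WT/WT replicate 1. In the 9 libraries, Acad9 was at 0.0566 with the prefix block in E3A/E3A against WT/WT and at 0.0109 in the slope. In WT/E3A against WT/WT it was at -0.0078 with upper-quartile scaling, -0.00057 with no filter and -0.0064 with quality weights. With 1 heart left out, Acad9 ran from -0.053 to 0.0083 in E3A/E3A against WT/WT, -0.028 to 0.031 in WT/E3A against WT/WT, -0.039 to 0.0062 in E3A/E3A against WT/E3A and -0.026 to 0.0038 in the slope, and Echs1 from -0.034 to 0.0038 in E3A/E3A against WT/E3A. None of these was called. The cause of these changes was not tested. A fit that leaves 2 hearts in a group borrows their spread from the other groups. Each member had at least 1162 reads in a heart.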
